A study of Mus musculus with 12 samples.

Results

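The 90 genes described here are genes of motile cilium families, measured in the mouse hippocampus. They were chosen by symbol, as every gene of the FPKM table that belongs to the numbered families Cfap, Dnah, Dnai, Dnaaf, Rsph, Drc or Tekt, together with Foxj1, and that was above 0 in at least 1 library. They are 90 of 27659 genes above 0. The samples were the hippocampi of wild-type male C57BL/6J mice aged 20 months, which took normal saline (CON group, 0.2 mL, 3 libraries) or PQQ (pyrroloquinoline quinone, a redox cofactor) by oral gavage for 14 days. The PQQ-L group took 5 mg/kg/day (5 libraries) and the PQQ-H group took 10 mg/kg/day (4 libraries), in the same volume of saline. The study assigned 6 mice to each group, so the libraries cover some of the animals. Nothing in the labels says that each library came from a separate mouse, and the p-values measure the spread between these libraries. The mice are naturally aged, and no young animals were among the samples, so the comparisons are between aged groups only. Values are FPKM, which are read fragments divided by gene length and by the total of the library, with 29654553 to 38179496 reads on genes per library. Markers of hippocampal neurons were present in every library. Their sums were 139 to 521 FPKM in CON, 406 to 691 in PQQ-L and 280 to 794 in PQQ-H. Markers of the striatum, a neighboring region, were present in every library too. They summed to 1463 to 3684 FPKM in 2 CON and 2 PQQ-H libraries and to 55.9 to 205 in the other 8. All 5 libraries of PQQ-L were among these 8.

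Motile cilia are hair-like extensions that beat. Their core, the axoneme, is a cylinder of doublet microtubules with rows of dynein motors, radial spokes and nexin links between the doublets. Foxj1 is the transcription factor that switches on the program of genes for motile cilia, together with factors of the RFX family. In the brain, motile cilia stand in tufts on ependymal cells, which line the ventricles, and the epithelium of the choroid plexus, which secretes cerebrospinal fluid, also bears cilia. Hippocampal neurons and astrocytes carry a single primary cilium, which does not beat and shares some of the same parts. A bulk hippocampus library holds RNA of all of these, and fewer cells of a type and less RNA per cell cannot be told apart in it.

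The promoters of the members share letters that the choice by symbol did not use. RFX factors bind a sequence called the X-box, and GTTGCCA and GTTGCTA are spellings of its conserved arm. Windows of 250 bases before to 50 bases after the start of transcription (RefSeq, GRCm38.p6) were found for 60 of the 90 members, 2 of them under an older symbol. At least 1 window of 14 of these 60 members (23.3%) held GTTGCCA on either strand, against 5.02% of all 27025 symbols with a window. GTTGCTA stood in the windows of 23 members (38.3%), against 4.28% of all symbols. For either spelling, the shares were 53.3% of the members (32 of 60) and 8.77% of all symbols. GTAAACA, the core letters of forkhead sites, stood in 4 members (6.67%), against 4.05% of all symbols. The genes for intraflagellar transport and the primary cilium, which run transport in all cilia, held an X-box arm in 19 of 50 (38%), and the choroid plexus markers in 1 of 17 (5.88%). Of the 43 matches in the windows of members, 33 lay wholly before the start and 27 of those began within 100 bases of it. A site shared by overlapping windows of a gene is counted once per window, as for Rsph14 and Cfap74. A match is a description of letters and not a bound site.

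Apart from Tekt1, 10 members chosen by the naming rule had a match before the start, and these are printed here with their flanks. The capital letters are alike because the search asked for them. Each line runs 5′ to 3′ on the strand of the gene with up to 12 bases on each side, ending at the start of transcription where that comes first, and capitals mark GTTGCCA or GTTGCTA on either strand.
Drc1, chr5:30281369-30281392, plus strand: actgctttccctTGGCAACggctt
Drc3, chr11:60353343-60353373, plus strand: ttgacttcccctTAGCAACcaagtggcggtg
Dnai2, chr11:114727374-114727404, plus strand: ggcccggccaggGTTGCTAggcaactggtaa
Dnah5, chr15:28203646-28203676, plus strand: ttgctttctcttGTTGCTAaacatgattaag
Dnaaf2, chr12:69198430-69198451, minus strand: caggcgttactaTGGCAACaaa
Rsph14, chr10:75032576-75032606, minus strand: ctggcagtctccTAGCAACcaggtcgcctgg
Tekt3, chr11:63061616-63061646, plus strand: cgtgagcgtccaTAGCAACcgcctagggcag
Tekt5, chr16:10395672-10395702, minus strand: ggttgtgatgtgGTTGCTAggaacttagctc
Cfap20, chr8:95434946-95434976, minus strand: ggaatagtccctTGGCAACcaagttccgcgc
Cfap36, chr11:29247412-29247442, minus strand: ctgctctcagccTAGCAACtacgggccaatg

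Of the 4 members that fell in the PQQ-H group (below), Tekt1, Drc7 and Cfap126 had a window and Foxj1 had no entry. Their 150 bases before the start are shown to set the called members beside the rest. For Tekt1 this is the start whose window held the letters, and for Cfap126 the most upstream start.
Tekt1, chr11:72361883-72362032, minus strand: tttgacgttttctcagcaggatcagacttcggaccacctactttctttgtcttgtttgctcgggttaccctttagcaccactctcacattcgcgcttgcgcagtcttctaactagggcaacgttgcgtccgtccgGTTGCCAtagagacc
Drc7, chr8:95054953-95055102, plus strand: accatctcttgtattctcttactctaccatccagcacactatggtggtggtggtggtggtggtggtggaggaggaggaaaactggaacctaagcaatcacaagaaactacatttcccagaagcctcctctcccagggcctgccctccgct
Cfap126, chr1:171113836-171113985, plus strand: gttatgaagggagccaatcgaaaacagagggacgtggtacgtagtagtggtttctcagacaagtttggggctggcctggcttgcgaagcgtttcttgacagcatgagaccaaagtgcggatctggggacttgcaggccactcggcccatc
Tekt1 held 1 match, from base -15 to base -9 counted back from the start, and Drc7 and Cfap126 held neither spelling in their windows. The 32 members with an X-box arm had a median log2FC of -0.43 in PQQ-H vs. CON and the 28 without it one of -0.29, in a fit over all genes above 0. Both medians were -0.23 in PQQ-L vs. CON. Cfap20 and Cfap36, whose log2FC were near 0 (below), held the letters too.

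The levels of the members spread over more than 3 orders of magnitude. Mean FPKM over the 12 libraries ran from 0.00693 for Cfap107 to 23.6 for Cfap20, with a median of 0.479. A total of 78 members were above 0 in all 12 libraries, and 44 members reached the mean FPKM of 0.5 set for the test. The Cfap family (cilia and flagella associated proteins, 45 members) held the highest and the lowest of these levels. The 15 axonemal dynein heavy chains, the motors themselves, were low as a family, with a median of 0.0789 FPKM and a highest mean of 0.66 in Dnah9. Medians of the other families were 0.651 for the dynein intermediate chains (Dnai, 5 members), 1.92 for the dynein assembly factors (Dnaaf, 9 members), 3.26 for the radial spoke heads and stalks (Rsph, 7 members), 3.39 for the nexin-dynein regulatory complex (Drc, 3 members) and 0.392 for the tektins (Tekt, 5 members). All these levels are per length of gene. Rsph3a and Rsph3b, and Dnah7a, Dnah7b and Dnah7c, are close copies, so the split of reads within each set is uncertain.

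The question of the study was what PQQ changes in the aged hippocampus. In PQQ-H vs. CON, Foxj1, Drc7, Tekt1 and Cfap126 fell and no member rose, by limma on log2(FPKM + 0.1) over all 12 libraries. A call needed an absolute log2FC over 1 and a p under 0.05 after Benjamini-Hochberg adjustment. These are 4 of 44 members tested, or 9.09%, while 0.819% of all 13796 genes tested were called lower and 0% higher. No member was called in PQQ-L vs. CON, where 0.471% of all genes tested were called lower and 0% higher. At an unadjusted p below 0.05, 12 members were lower (27.3%, against 11.6% of all genes) and 1 was higher (2.27%, against 8.92%) in that comparison. Limma voom on recovered reads called 2 members lower in PQQ-L vs. CON, Drc7 and Foxj1, of 82 tested (2.44%, against 0.732% of all genes), and in PQQ-H vs. CON the same 4 as limma (4.88%, against 0.947%). Both comparisons use the same 3 CON libraries and are not independent.

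Foxj1 was at 7.64, 7.27 and 10.0 FPKM in the CON group. In the PQQ-L group it was at 4.16, 3.65, 5.15, 3.79 and 2.79, and in the PQQ-H group at 3.18, 3.41, 1.65 and 1.76. All PQQ libraries lay under all CON libraries, while the groups of both doses overlapped. Group means were 8.3 ± 1.48 (SD, n = 3), 3.91 ± 0.856 (n = 5) and 2.5 ± 0.923 (n = 4). The log2FC was -1.75 (SE 0.27, adjusted p = 0.00873) in PQQ-H vs. CON and -1.08 (SE 0.258, adjusted p = 0.106) in PQQ-L vs. CON. Counting was no limit here, with 161 to 925 reads per library.

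Drc7 codes for a subunit of the nexin-dynein regulatory complex, the link that keeps doublets in step as the motors pull. It was at 3.12, 3.07 and 6.26 FPKM in CON, at 0.995, 0.789, 2.07, 0.989 and 0.588 in PQQ-L and at 0.209, 0.31, 0.285 and 0.0489 in PQQ-H. None of the 3 groups overlapped. The means were 4.15 ± 1.83 (SD, n = 3), 1.09 ± 0.573 (n = 5) and 0.213 ± 0.118 (n = 4), and the lowest library held 5 reads. Its log2FC of -3.78 in PQQ-H vs. CON (SE 0.438, adjusted p = 0.00126) was the lowest of the 44 members tested. In PQQ-L vs. CON it was -1.87 (SE 0.419, adjusted p = 0.0858).

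Tekt1, a tektin, which forms filaments inside the doublet wall, was at 2.67, 2.69 and 4.30 FPKM in CON. It was at 1.1, 1.07, 2.28, 1.75 and 1.12 in PQQ-L and at 0.64, 0.994, 0.311 and 0.32 in PQQ-H. Again none of the groups overlapped. The log2FC was -2.41 in PQQ-H vs. CON (SE 0.374, adjusted p = 0.00902) and -1.11 in PQQ-L vs. CON (SE 0.357, adjusted p = 0.2). Cfap126, also known as Flattop, a protein of the inner doublet wall that helps to place basal bodies, was at 2.25, 1.72 and 3.8 FPKM in CON. In PQQ-L it was at 0.591, 0.99, 1.36, 0.9 and 0.415, and in PQQ-H at 0.363, 1.02, 0.309 and 0.18. The CON libraries lay above all PQQ libraries, and both doses overlapped. Its log2FC was -2.37 in PQQ-H vs. CON (SE 0.474, adjusted p = 0.0412) and -1.52 in PQQ-L vs. CON (SE 0.454, adjusted p = 0.186).

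**Figure D1:**
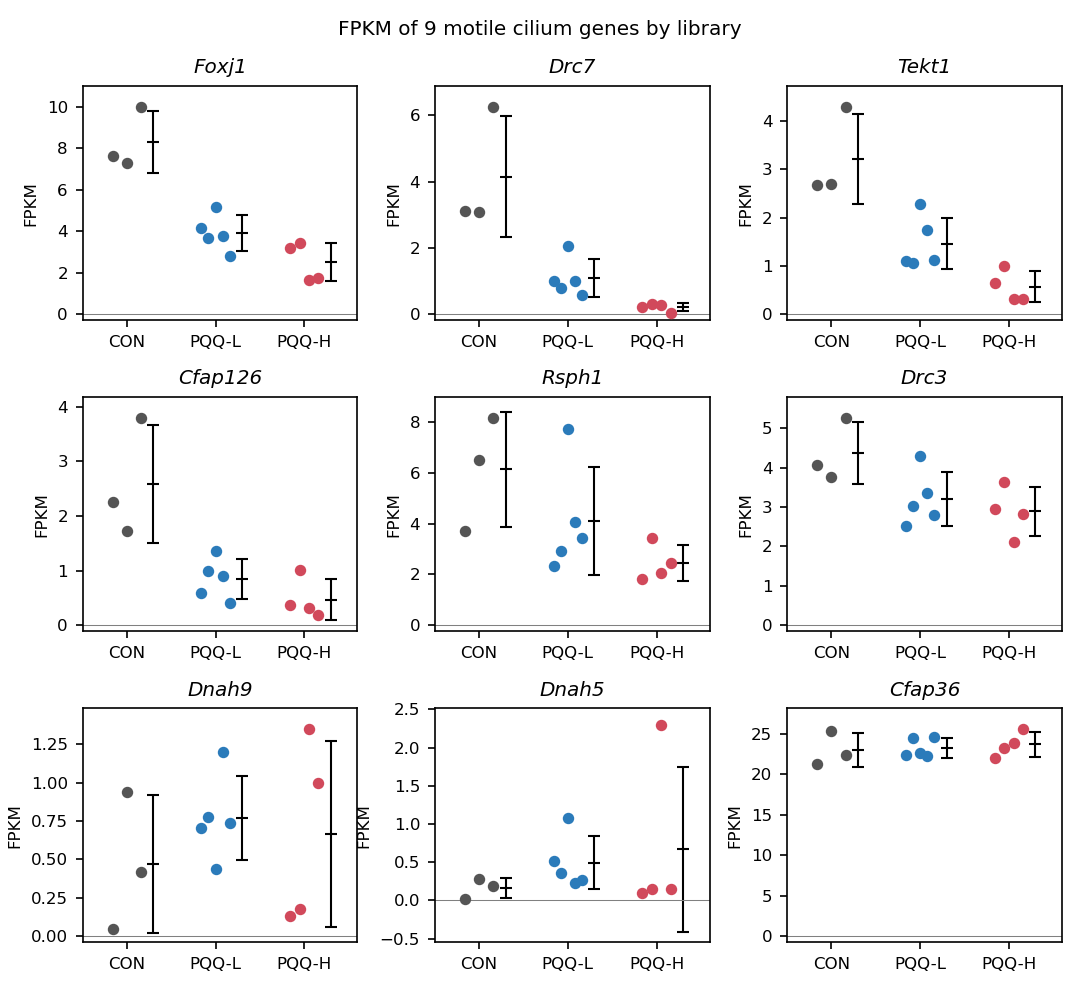
FPKM of 9 motile cilium genes. Points are libraries of the CON (n = 3), PQQ-L (n = 5) and PQQ-H (n = 4) groups, and the bar beside them is the mean ± SD. Foxj1, Drc7, Tekt1 and Cfap126 were lower in all PQQ libraries than in all CON libraries, Cfap36 stayed between 21.3 and 25.6 FPKM, and Dnah5 was at 2.29 FPKM in 1 PQQ-H library.

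The calls rested in part on CON 3. Without it, the highest CON library in all 4 called genes, Drc7 alone was called in PQQ-H vs. CON, and the adjusted p of Foxj1 was 0.0642, that of Tekt1 0.0647 and that of Cfap126 0.196. The log2FC of these 3 genes were then -1.61, -2.18 and -2.07, and 62 of all 13796 genes were called lower in place of 113. The call of Cfap126 was also lost without CON 1 (adjusted p = 0.113), PQQ-L 1, PQQ-L 2 or PQQ-L 4 (0.0612, 0.063 and 0.0664), and PQQ-H 1, PQQ-H 3 or PQQ-H 4 (0.0897, 0.129 and 0.116). Drc7 was also the only call with array quality weights (31 of all genes lower) or with PQQ-L left out of the fit (44 of all genes lower). Without PQQ-H 2, 6 members were called, with Cfap206 and Cfap45 in addition, and 153 of all genes were called lower. In PQQ-L vs. CON, Drc7, Foxj1 and Cfap126 were called without CON 2. The calls over all genes rose there too, to 431 lower and 435 higher of 13796, from 65 and 0. Without PQQ-L 3, Drc7 was called, with 75 of all genes lower.

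Markers of the choroid plexus moved with the same groups. The 22 markers summed to 1832 to 6056 FPKM in CON, 116 to 216 in PQQ-L and 88.8 to 108 in PQQ-H, and 17 of them were called lower for PQQ-L and 19 for PQQ-H against CON. Ttr, the most abundant of them, coding for the thyroid hormone carrier transthyretin, was at 3477 ± 1912 FPKM (SD, n = 3) in CON, 78.1 ± 28.2 (n = 5) in PQQ-L and 21.3 ± 7.8 (n = 4) in PQQ-H. Folr1, Kcne2, Krt8, Otx2, Slc4a5 and Wfdc2 were each at 0 in at least 1 PQQ-H library, and no marker was at 0 in a CON library. CON and PQQ libraries did not overlap in this sum, so the part of choroid plexus tissue and the part of PQQ in the fall of the 4 members cannot be told apart by group. With a score of these markers as a covariate, 0 of all 13796 genes were called in either comparison with CON, and so 0 members. The log2FC in PQQ-H vs. CON was then 0.21 (SE 0.969) for Foxj1, 0.58 (SE 1.25) for Drc7, 0.48 (SE 1.3) for Tekt1 and 1.43 (SE 1.62) for Cfap126, each with an adjusted p of 0.999. Each value was smaller than its SE. The score set all CON apart from all PQQ libraries, so this fit cannot decide the sign.

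Ependyma markers, the genes of the ventricle lining, also moved with the groups. Of the 18 tested, 16 had a log2FC below 0 in PQQ-H vs. CON (against 55.6% of all genes tested), with a median of -1.23. In PQQ-L vs. CON, 12 did (against 53.9%), with a median of -0.7. Of the 20 above 0, 11 were lower in every PQQ-H library than in every CON library (against 4.95% of all genes above 0). For PQQ-L, 4 of the markers were (against 5.85%). Their sum overlapped between the groups, at 221 to 349 FPKM in CON, 176 to 347 in PQQ-L and 178 to 318 in PQQ-H, and Nnat, also a neuronal gene, gave a large part of it (mean 147). Without Nnat, left out after the values were seen, the sum was 127 to 170 FPKM in CON, 67 to 110 in PQQ-L and 54.9 to 126 in PQQ-H. CON then lay above both doses, with PQQ-H 1 just under CON 2. Tppp3 was the most abundant of the remaining markers (mean 56.1). Limma called 1 of the 18 lower for PQQ-L and 3 for PQQ-H against CON, and 1700012B09Rik, Ccdc153, Fam216b and Sntn were at 0 in at least 1 PQQ-H library and in no CON library. Calml4, which is also in the choroid plexus list, had a log2FC of -3.68 in PQQ-H vs. CON (adjusted p = 0.000598). Sntn, coding for sentan of the ciliary tip, had one of -2.52 (adjusted p = 0.0412) and 1110017D15Rik one of -1.17 (adjusted p = 0.0484). Markers of the meninges, the brain coverings, summed to 593 to 824 FPKM in CON, 339 to 657 in PQQ-L and 244 to 438 in PQQ-H, with 3 of 10 tested called lower in PQQ-H. Of the 12 hippocampal neuron markers, 0 had a log2FC below 0 in either comparison with CON. Their medians were 1.17 for PQQ-L and 0.83 for PQQ-H. Of 9 thalamus and habenula markers tested, 8 were below 0 for PQQ-L and 9 for PQQ-H, with medians of -0.97 and -1.09. Limma called 0 markers of either list. The part of meninges, hippocampal neurons, thalamus and habenula in the result was not tested.

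**Figure D2:**
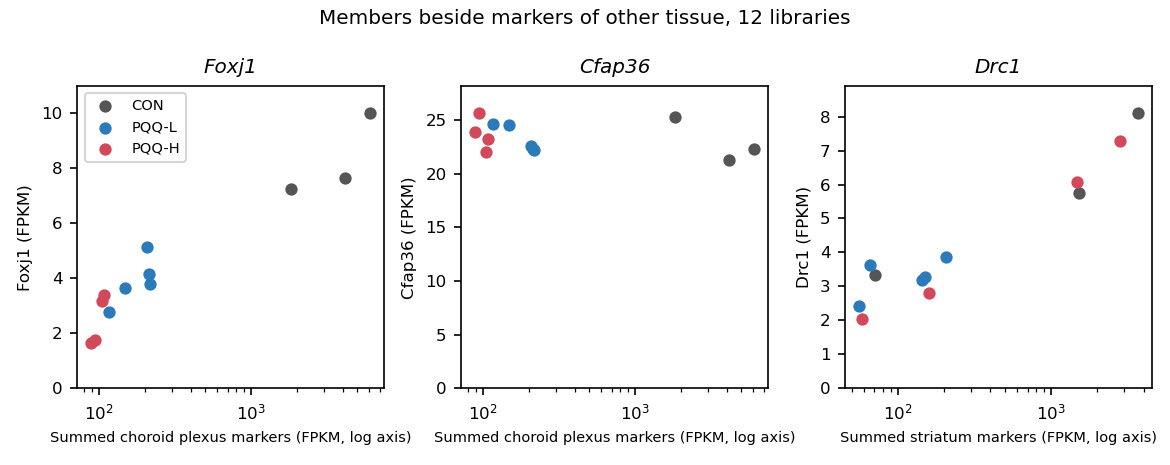
Foxj1, Cfap36 and Drc1 (FPKM, vertical axes) beside the summed FPKM of choroid plexus or striatum markers (horizontal log axes) in the 12 libraries. The 3 CON libraries lay at 1832 to 6056 FPKM of choroid plexus markers and the PQQ libraries at 88.8 to 216, Foxj1 was highest in CON, Cfap36 was level, and Drc1 was above 5 FPKM in the 4 libraries with the most striatum markers.

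The other members are given by their role, from the motors outward. Dynein heavy chains are the force-producing subunits. Only Dnah9, a chain of the outer arm, passed the filter, and it was at 0.0472, 0.941 and 0.421 FPKM in CON. In PQQ-L it was at 0.702, 0.774, 0.438, 1.2 and 0.734, and in PQQ-H at 0.134, 0.174, 1.35 and 1.0. The low libraries were CON 1, PQQ-H 1 and PQQ-H 2, the groups overlapped, and the log2FC of 0.96 in PQQ-L vs. CON (adjusted p = 0.378) and 0.4 in PQQ-H vs. CON (adjusted p = 0.887) were within the spread.

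Dnah5, the other outer arm chain with a high level in this family, was at 0.0231, 0.283 and 0.189 FPKM in CON and at 0.516, 0.355, 1.08, 0.233 and 0.272 in PQQ-L. In PQQ-H, PQQ-H 3 was at 2.29 and the other libraries at 0.0934, 0.144 and 0.144. Its recovered reads were 1279 in PQQ-H 3, against 52 to 78 in the rest of that group. Dnah1, an inner arm chain, was at 0.587 ± 0.0616 FPKM (SD, n = 3) in CON, 0.43 ± 0.0766 (n = 5) in PQQ-L and 0.487 ± 0.139 (n = 4) in PQQ-H, with a log2FC of -0.25 in PQQ-H vs. CON (adjusted p = 0.787, all genes above 0). Of the 15 heavy chains, 13 had a log2FC below 0 in PQQ-H vs. CON, with a median of -0.3 against -0.02 for all genes in the fit of all genes above 0. In the main test, 55.6% of all genes were below 0. Dnah6, Dnah11 and Dnah12 were lower in all PQQ-H than in all CON libraries, which is 3 of 15, against 4.95% of all genes above 0. Dnah11 had 21, 74 and 121 reads in CON and 4, 8, 4 and 0 in PQQ-H. Dnah12 had 21, 73 and 11 in CON and 5, 10, 5 and 0 in PQQ-H. The lowest CON library of Dnah12 was at 0.024 FPKM and its highest PQQ-H library at 0.0226. The results for Dnah11 and Dnah12 thus rest on few reads.

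Dynein intermediate chains anchor the motors to the doublet. Dnai1, of the outer arm, was at 2.25 ± 0.411 FPKM (SD, n = 3) in CON, 1.27 ± 0.213 (n = 5) in PQQ-L and 1.54 ± 0.656 (n = 4) in PQQ-H. It overlaps Enho on the opposite strand. The CON and PQQ-L libraries did not overlap, with a log2FC of -0.78 (adjusted p = 0.222), and CON and PQQ-H overlapped, with one of -0.6 (adjusted p = 0.547). Dnai2, its outer arm partner, had a log2FC of -0.55 in PQQ-L vs. CON (adjusted p = 0.31) and -0.64 in PQQ-H vs. CON (adjusted p = 0.619). Dnai4, of an inner arm, had values of -0.36 (adjusted p = 0.31) and -0.51 (adjusted p = 0.514), and its highest library of all was PQQ-L 3 at 2.52 FPKM. Dnai3 was under the filter, at 0.304, 0.268 and 0.57 FPKM in CON, 0.0452 to 0.195 in PQQ-L and 0 to 0.0687 in PQQ-H. Without the filter on low values it was called in PQQ-H vs. CON, with a log2FC of -1.76 (adjusted p = 0.0265), while Cfap126 missed the call in that fit (adjusted p = 0.0518). Voom did not call Dnai3 (adjusted p = 0.0513), which had 0 to 7 reads in PQQ-H. All CON libraries lay above all PQQ libraries.

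Dynein assembly factors fold and pack the motors in the cytoplasm before they enter the cilium. This family had small differences, with medians of -0.06 for PQQ-L and -0.1 for PQQ-H against CON over 6 tested. Dnaaf9, the most abundant, was at 11.7 ± 0.886 FPKM (SD, n = 3) in CON, 11.9 ± 1.2 (n = 5) in PQQ-L and 11.7 ± 1.5 (n = 4) in PQQ-H. Dnaaf10 had a log2FC of -0.08 (SE 0.0985, adjusted p = 0.833) and Dnaaf2 one of -0.16 (SE 0.129, adjusted p = 0.758) in PQQ-H vs. CON. Dnaaf2 overlaps the protein-coding genes Gm49383 and Gm49384 on the same strand. Dnaaf3 was lower in all PQQ libraries (0.201 to 0.464 FPKM) than in CON (0.486, 0.582 and 0.582). Dnaaf6b had 4 reads in 1 CON library, 0 in the rest of CON and at most 3 in any PQQ library, so no fold is given.

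Radial spokes carry signals from the center of the axoneme to the motors. Rsph1, of the spoke head, was at 3.72, 6.51 and 8.17 FPKM in CON, at 2.34, 2.94, 7.72, 4.07 and 3.45 in PQQ-L and at 1.83, 3.44, 2.06 and 2.44 in PQQ-H. PQQ-H lay under CON in every library, with a log2FC of -1.26 (SE 0.377, adjusted p = 0.211), while PQQ-L 3 stood within the CON range. Rsph4a, another head protein, had a log2FC of -1.35 (adjusted p = 0.325), with CON 1 at 0.563 and the other CON libraries at 2.14 and 2.28 FPKM. Rsph9, also of the head, had one of -0.27 (SE 0.281, adjusted p = 0.811), and on the opposite strand it overlaps Mrps18a, which reads without strand could not separate. Rsph3a, of the stalk, was at 5.58 ± 1.22 FPKM (SD, n = 3) in CON and 6.02 ± 1.32 (n = 4) in PQQ-H. Rsph14 had at most 1 read in every PQQ-H library, 0 to 12 in PQQ-L and 0, 2 and 13 in CON, and overlaps Gnaz on the opposite strand.

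In the nexin-dynein regulatory complex, the 3 subunits measured had different patterns. Drc7 is described above. Drc3 was at 4.08, 3.77 and 5.27 FPKM in CON and at 2.96, 3.65, 2.12 and 2.83 in PQQ-H, without overlap, with a log2FC of -0.59 (SE 0.206, adjusted p = 0.336). Drc1 was at 8.09, 3.33 and 5.75 FPKM in CON, at 2.43 to 3.87 in PQQ-L and at 7.29, 6.08, 2.04 and 2.82 in PQQ-H. The 4 libraries above 5 FPKM, CON 1, CON 3, PQQ-H 1 and PQQ-H 2, were those with the most striatum markers, whose sum was 1463 to 3684 FPKM there and 55.9 to 205 in the other 8. Dnah9 went the other way, at 0.0472 to 0.421 FPKM in these 4 and 0.438 to 1.35 in the other 8. With a striatum score as a covariate, the log2FC of Drc1 in PQQ-H vs. CON was -0.18 (SE 0.15, adjusted p = 0.675) in place of -0.42 (SE 0.412, adjusted p = 0.8). In PQQ-L vs. CON, where no PQQ-L library was rich in striatum markers, it was 0.02 (SE 0.164, adjusted p = 0.993) in place of -0.71 (SE 0.394, adjusted p = 0.274).

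All 12 striatum markers had a log2FC below 0 in PQQ-L vs. CON, with a median of -2.99, and above 0 in PQQ-H vs. PQQ-L, with a median of 2.12, and limma called 0 of them. With the covariate, the same 4 members were called in PQQ-H vs. CON beside 142 of all 13796 genes lower, with Foxj1 at a log2FC of -1.63 (adjusted p = 0.000768). It left 0 members called in PQQ-L vs. CON. The log2FC there went from -1.08 to -0.7 for Foxj1, from -1.87 to -1.61 for Drc7, from -1.11 to -0.73 for Tekt1 and from -1.52 to -1.04 for Cfap126. Without the 4 libraries rich in striatum markers, which leaves 1 CON library and assumes that it varies like the others, 6 of all 13796 genes were called lower in PQQ-H vs. CON and 0 members. Foxj1 was then at -2.03 (adjusted p = 0.101), Drc7 at -3.73 (adjusted p = 0.175), Tekt1 at -2.75 (adjusted p = 0.119) and Cfap126 at -2.43 (adjusted p = 0.279).

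Among the 23 tested Cfap members, the most abundant had log2FC near 0. Cfap36, which binds the small GTPase Arl3 and is found in cilia without motility as well, was at 23.0 ± 2.11 FPKM (SD, n = 3) in CON, 23.2 ± 1.2 (n = 5) in PQQ-L and 23.6 ± 1.5 (n = 4) in PQQ-H. Its log2FC was 0.02 (SE 0.0776) for PQQ-L and 0.04 (SE 0.0811) for PQQ-H against CON. Cfap20, of the junction between the doublet tubules, was at 25.2 ± 2.51 FPKM in CON and 23.6 ± 3.55 in PQQ-H, with a log2FC of -0.1 (SE 0.121, adjusted p = 0.837). Cfap418, known from photoreceptors, had one of 0.07 (SE 0.116, adjusted p = 0.879). The highest positive values were 0.33 for Cfap90, 0.29 for Cfap97 and 0.25 for Cfap20dc among the Cfap members in PQQ-L vs. CON (adjusted p = 0.447, 0.221 and 0.304). In PQQ-H vs. CON, Cfap97 was at 0.28 (adjusted p = 0.417) and Cfap20dc at 0.19 (adjusted p = 0.771). Cfap97 overlaps Snx25 on the opposite strand.

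Cfap206, Cfap52 and Cfap91 had a lower mean FPKM than Cfap126 and are named here after their values were seen. Cfap206, a radial spoke protein, was at 1.06, 1.13 and 1.80 FPKM in CON and at 0.193, 0.484, 0.0722 and 0.161 in PQQ-H, with a log2FC of -2.24 (SE 0.524, adjusted p = 0.0843). Cfap52, an inner doublet protein, had one of -1.68 (SE 0.604, adjusted p = 0.352), with CON 1 at 0.354 FPKM, within the PQQ-H range of 0.204 to 0.43, and the other CON libraries at 1.92 and 2.47. Cfap91, of the spoke base, had one of -1.22 (SE 0.331, adjusted p = 0.16). Cfap141, also a protein of the inner doublet wall, was at 2.42, 2.48 and 2.69 FPKM in CON, at 1.5 to 2.15 in PQQ-L and at 1.41, 1.66, 1.1 and 1.2 in PQQ-H. It had an adjusted p of 0.0261 in PQQ-H vs. CON with a log2FC of -0.88 (SE 0.159), under the fold set for a call.

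Of the tektins, Tekt5, known from sperm flagella, was at 5.08 ± 0.211 FPKM (SD, n = 3) in CON and 4.89 ± 1.12 (n = 4) in PQQ-H, with a log2FC of -0.08 (adjusted p = 0.944). Tekt4 was under the filter, at 0.704, 0.66 and 0.584 FPKM in CON and 0.223 to 0.336 in PQQ-H. Every PQQ library lay under every CON library, and the fit of all genes gave a log2FC of -1.01 (SE 0.226, adjusted p = 0.0783). Tekt3 had 4, 3 and 1 reads in CON and at most 3 in any PQQ library, too few to compare.

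**Figure D3:**
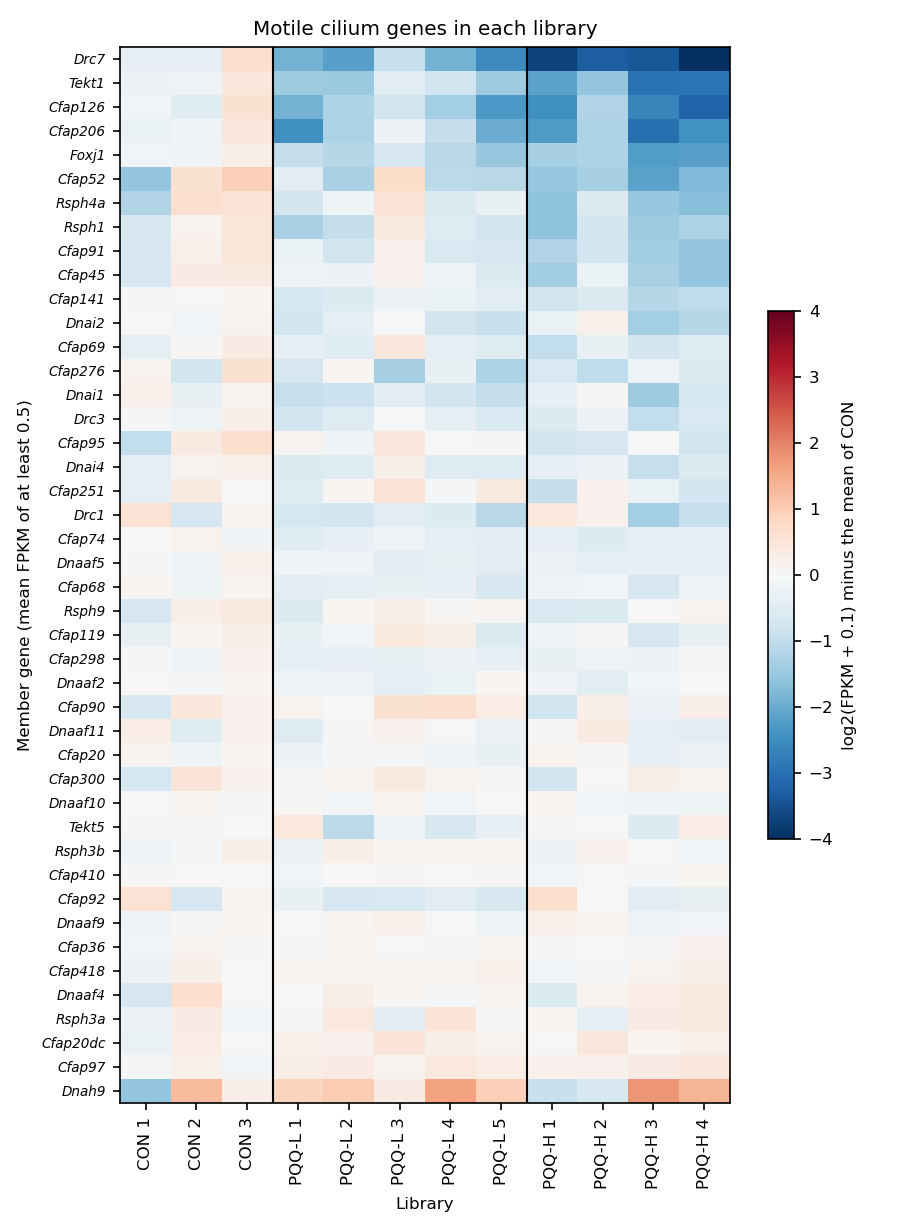
Heat map of the 44 tested members (rows, ordered by their log2FC in PQQ-H vs. CON) in the 12 libraries (columns). Color is log2(FPKM + 0.1) minus the mean of the 3 CON libraries, so blue is below CON. Drc7, Tekt1, Cfap126 and Foxj1 are blue in all PQQ libraries, while Cfap36 and Cfap418 are near white. Dnah9, the bottom row, differs widely between libraries of the same group.

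Counted over the families, the direction was mostly down in PQQ-H vs. CON. Of the 44 tested members, 37 (84.1%) had a log2FC below 0 in PQQ-H vs. CON, against 55.6% of all genes tested, with medians of -0.31 for the members and -0.03 for all genes. For PQQ-L vs. CON the figures were 31 members (70.5%, against 53.9%) and medians of -0.24 and -0.03. At an unadjusted p below 0.05, 16 members were lower (36.4%, against 7.88% of all genes) and 1 was higher (2.27%, against 1.85%) in PQQ-H vs. CON. Over all 90 members, 26 were lower in every PQQ-H library than in every CON library (28.9%, against 4.95% of all genes above 0), and 0 were higher (1.23% of all genes). For PQQ-L vs. CON these were 12 members (13.3%, against 5.85%) and 0 (against 2.03%).

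The members share pathways and cell types, and they are not independent replicates of a condition. The single libraries did not weigh alike either. PQQ-H 3 was the lowest library for 27 of 90 members and PQQ-H 4 for 18, while CON 3 was the highest for 27 and CON 2 for 19. CON 1 was the lowest library for 14 members, among them Dnah5, Dnah9 and Rsph9, and PQQ-L 3 was the highest for 13.

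**Figure D4:**
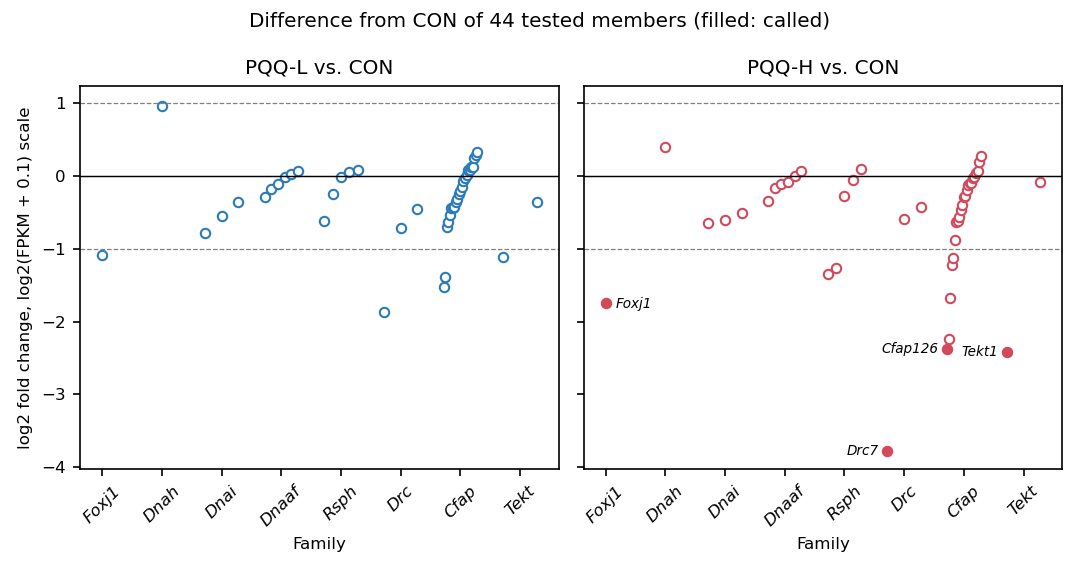
Log2 fold change of the 44 tested members by family for PQQ-L (left) and PQQ-H (right) against CON, on the log2(FPKM + 0.1) scale. Filled points are called, and dashed lines mark a log2FC of 1 and -1. Called points appear only on the right, from -1.75 for Foxj1 to -3.78 for Drc7.

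Members at every level had log2FC below 0 more often than above. The 30 members with the highest mean FPKM (1.56 to 23.6) had a median log2FC of -0.14 in PQQ-H vs. CON, with 25 below 0. For the middle 30 (0.242 to 1.51 FPKM) the median was -0.67, with 26 below 0. In the lowest 30 (0.00693 to 0.237 FPKM) it was -0.43, with all 30 below 0. These values come from the fit of all genes above 0, in which the median of all 27659 genes was -0.02. Among the 13796 genes of the main test, 55.6% were below 0. The pseudocount of 0.1 makes the change of low genes look smaller.

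**Figure D5:**
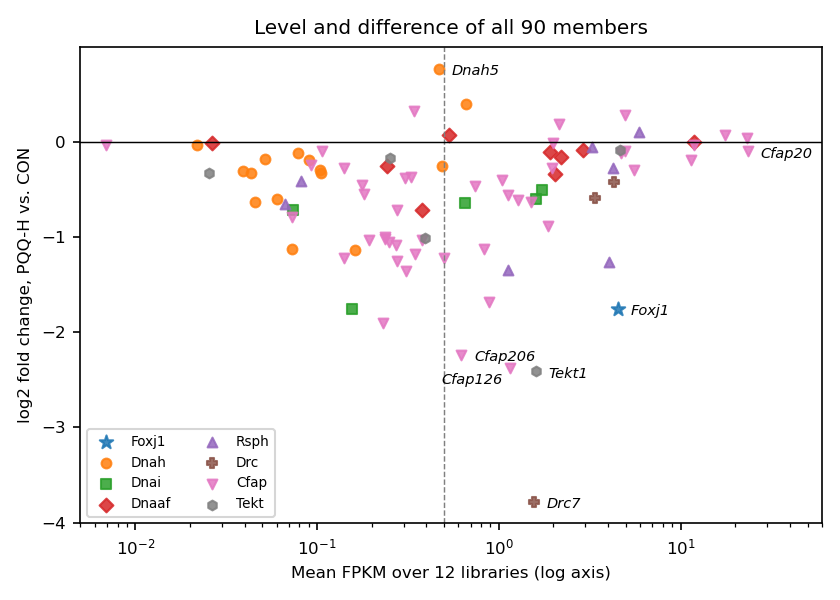
Mean FPKM over the 12 libraries (log axis) and log2 fold change in PQQ-H vs. CON for all 90 members, by family, in the fit of all genes above 0. The dashed line is the filter of 0.5 FPKM. Drc7 is lowest at -3.78, Cfap20, the most abundant at 23.6 FPKM, is at -0.1, and Dnah5, at 0.77, rests on 1 PQQ-H library.

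Other genes of motile cilia were taken from a list of 59 symbols outside these families, some of them older names, of which 48 were above 0 and 23 tested. In PQQ-H vs. CON, 4 of the 23 were called lower and 0 higher, against 0.819% and 0% of all genes tested. A log2FC below 0 was found in 22, against 55.6% of all genes, and the median was -0.57. Dynlrb2, a dynein light chain, had a log2FC of -2.62 (adjusted p = 0.0268), from 6.71 ± 2.83 FPKM (SD, n = 3) to 1.16 ± 0.833 (n = 4). Ak7, an adenylate kinase of the axoneme, had one of -2.41 (adjusted p = 0.0456) and Dnali1, a dynein light intermediate chain, one of -1.77 (adjusted p = 0.0412). The most abundant genes of this list were Dnal1 at 0.23, Nme5 at -0.4 and Pierce2 at -0.24 on the log2FC scale, and none of these passed the test. In PQQ-L vs. CON, 0 of the 23 were called by limma (10 lower and 1 higher at an unadjusted p below 0.05), voom called 0 of 47, and the median was -0.44.

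Regulators of the state with many cilia were taken from a list of 17 genes, of which 14 were above 0. Gmnc and Mcidas, which act upstream of Foxj1, were under the filter at means of 0.277 and 0.0719 FPKM, and so were Trp73 and Myb at 0.327 and 0.148. The 6 tested were Rfx2 and Rfx3, the cell cycle factors E2f4 and E2f5, and Ccno and Plk4 of centriole amplification. Limma called 0 in either direction, with medians of 0.02 for PQQ-L and 0.09 for PQQ-H against CON. At an unadjusted p below 0.05, 1 was higher in PQQ-L and 0 in PQQ-H than in CON, and voom called 0 of 12. The limma test did not cover the regulators under the filter. Of these, Gmnc was at 0 in at least 1 PQQ-H library and in no CON library. Of all 14, 1 was lower and 0 were higher in every PQQ-H library than in every CON library. Among all genes above 0, 4.95% were lower and 1.23% higher in this way. E2f4 was at 11.2 ± 0.553 FPKM (SD, n = 3) in CON and 11.9 ± 0.401 (n = 4) in PQQ-H. Rfx3, an X-box factor, had a log2FC of 0.66 (SE 0.509, adjusted p = 0.741) and Ccno one of 0.12 (SE 0.294, adjusted p = 0.918) in PQQ-H vs. CON. Genes of intraflagellar transport and the primary cilium had 0 of 57 called in either comparison and medians of -0.04 and -0.07. Their counts at an unadjusted p below 0.05 were 7 lower and 2 higher for PQQ-L and 1 lower and 0 higher for PQQ-H against CON, and voom called 0 of 58. Arl3, Kifap3 and Ift20, the most abundant of them, had log2FC of -0.1, 0.12 and -0.01 in PQQ-H vs. CON.

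Between the doses, no member passed the test in PQQ-H vs. PQQ-L, where limma also called 0 of all 13796 genes in either direction (0%). Unadjusted p below 0.05 was reached by 7 members that were lower in PQQ-H (15.9%, against 4.6% of all genes) and 0 that were higher (against 3.55%). Voom on recovered reads called 0, with 19 of 82 lower at an unadjusted p below 0.05 (23.2%, against 4.86% of all genes) and 0 higher (against 3.05%). Over all 90 members, 7 were lower in every PQQ-H library than in every PQQ-L library (7.78%, against 2.02% of all genes above 0) and 0 were higher (against 0.947%). The smallest of these p-values belonged to Drc7, with a log2FC of -1.91 (SE 0.385, limma unadjusted p over 12 libraries = 0.000382, adjusted p = 0.58), and the groups of both doses did not overlap. Tekt1 followed at -1.29 (SE 0.328, limma unadjusted p over 12 libraries = 0.00216, adjusted p = 0.58), again without overlap, and Cfap141 at -0.44 (SE 0.14, limma unadjusted p over 12 libraries = 0.00857, adjusted p = 0.58). Foxj1 was at -0.67 (SE 0.237, adjusted p = 0.58). Choroid plexus markers also differed between the doses without a call, with a median log2FC of -0.86, and their sums did not overlap.

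The library names begin with the letters L or R, which the sources used here do not explain. The 4 called members were below CON within both letters in PQQ-H. With the letter as a covariate, 3 of them were called beside 78 of all genes lower, and Cfap126 was not (adjusted p = 0.0692). Foxj1 differed from CON by -1.66 (log2) among the libraries with L (2 CON, 3 PQQ-H) and by -2.06 among those with R (1 of each). For Drc7 these were -3.62 and -4.43, for Tekt1 -2.34 and -2.72, and for Cfap126 -2.16 and -3.07. Dnah9 differed by -0.7 with L and by 2.9 with R.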

How the data were processed

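The 12 hippocampal RNA-seq libraries comprised 3 CON, 5 PQQ-L and 4 PQQ-H samples. The authors isolated RNA by TRIzol, ran an Illumina NovaSeq, filtered reads with fastp, mapped them with HISAT2 (build mm39 per the submitters' processing notes), counted them with HTSeq-count and deposited FPKM for 27833 genes. They tested genes with DESeq2, which was not repeated here. Annotation, strand setting and versions are not given in the sources used here. FPKM divides counts by gene length and library total, so a few very high genes lower all others slightly.

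Differential expression was tested with limma 3.58.1 (R 4.3.3) on log2(FPKM + 0.1), with trend, in one fit of 12 libraries. The 13796 genes tested had a mean FPKM of 0.5 or more, and a gene was called at an absolute log2FC over 1 with an adjusted p under 0.05 (Benjamini-Hochberg). Fold changes are on that scale and understate low genes. Members under the filter were read from a fit of all 27659 genes above 0. Whole reads were recovered from the FPKM at a tolerance of 0.02 reads for 100% of genes above 0 in at least 2 libraries, and tested with voom (mean of at least 10 reads). Taken alone, a recovered count gives only its counting error, while voom also uses the spread between libraries. No 2 libraries of a group were duplicates (lowest chi-square per degree of freedom 18.5).

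The limma step was tested on simulated data in which 200 of 13796 genes were lowered by 3 (log2) in PQQ-H, of which 197 were called with 3 others. Noise was drawn for each gene on its own, without differences in tissue shared between genes. The drop was larger than that of Foxj1, Tekt1 and Cfap126, so these shares do not carry over to the real libraries. Alternatives were other pseudocounts, filters and scalings, only the groups compared, a replicate block, the library name's first letter, array quality weights, a choroid plexus score, voom and leaving out each library. The striatum score and leaving out the 4 libraries with a score above 5 were chosen after seeing the data. Members, lists and alternatives were chosen with earlier results of these data known. Named are Foxj1, the 3 most abundant members of each family, all called members, the 3 with the highest log2FC per comparison with CON, the 3 with the smallest p between the doses, members at no more than 3 reads throughout a group but not in all, and the most abundant or called genes of a list. Other members were named after their values were seen. A gene called from a list is not reported here. Promoter windows came from RefSeq (GRCm38.p6) and overlaps from GENCODE M21, a different build from that of the files, so no gene positions are given for the FPKM. The search for overlaps found 22 of the 30 named members, so those of the others are not known. Not every overlap found is named in the text. Scripts used Python 3.11.15, numpy 2.4.6, pandas 2.3.3 and matplotlib 3.10.9.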

Additional observations from a re-analysis of the deposited data

Results flagged for a closer look

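Among the 30 named members, the highest and lowest libraries of PQQ-L and PQQ-H were compared with the gap allowed by Dixon's test at 95%, which flags about 1 in 20 groups by chance, and 4 of 60 groups had a library that stood apart. Dnah5 was at 2.29 FPKM in PQQ-H 3, against 0.0934 to 0.144 in the other PQQ-H libraries. Dnai4 was at 2.52 FPKM in PQQ-L 3, against 1.42 to 1.46 in the rest of its group. Drc7 was at 2.07 FPKM in PQQ-L 3, against 0.588 to 0.995, and Cfap20dc at 2.75 FPKM in PQQ-L 3, against 2.06 to 2.24.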

How the results depend on the processing

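In PQQ-L vs. CON, 0 members were called (65 of all 13796 genes lower). A pseudocount of 1 gave 1 (66 of all genes lower), and voom on recovered reads gave 2 (123 of 16798 genes lower). Leaving out single libraries gave 0 to 3. It was 3 without CON 2, where calls over all genes rose to 431 lower and 435 higher of 13796, from 65 and 0. In PQQ-H vs. CON, 4 members were called (113 of all 13796 genes lower). Fitting only the 2 groups compared gave 1 (44 of all genes lower), and array quality weights gave 1 (31 lower). Cfap126 missed the call with median-of-ratios scaling (adjusted p = 0.0513) and with the L or R of the library names in the fit (0.0692), which left 3 called each. Of all genes, 90 were called lower and 1 higher with the scaling, and 78 lower with the letter. In the fit of all genes above 0 Cfap126 missed the call too (0.0518), and 4 members were called with Dnai3, beside 169 of 27659 genes lower and 1 higher. The choroid plexus score as a covariate left 0 called, as of all 13796 genes. The log2FC was then 1.43 for Cfap126 (SE 1.62), 0.58 for Drc7 (SE 1.25), 0.21 for Foxj1 (SE 0.969) and 0.48 for Tekt1 (SE 1.3), each smaller than its SE. Leaving out the 4 libraries rich in striatum markers left 0 called, and 6 of all 13796 genes, with fewer samples in the fit, and leaving out single libraries gave 1 to 6 (1 without CON 3, 6 without PQQ-H 2). The cause of the other shifts was not tested. With a replicate block on the sample numbers, 1 member was called in PQQ-H vs. CON, Drc7, and 0 in both other comparisons. The labels do not say whether the numbers pair the libraries. Deviations of same-numbered libraries correlated from -0.619 to 0.717, highest for CON 1 and PQQ-H 1, both rich in striatum markers. Such values also carry differences in tissue, so they cannot decide the pairing. In PQQ-H vs. PQQ-L, 0 members were called under every alternative run. In each of the 4 called genes, the choroid plexus covariate was the only one of 26 alternatives that changed the sign in PQQ-H vs. CON, to a value smaller than its SE. Depth limits members below about 10 reads per library, such as Tekt3, Rsph14 and Dnaaf6b.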
